A study of Mus musculus with 11 samples.

Results

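The two-pore domain (K2P) potassium channels are represented here by 9 genes, Kcnk1, Kcnk2, Kcnk3, Kcnk4, Kcnk6, Kcnk9, Kcnk10, Kcnk12 and Kcnk13, out of 38924 genes counted by RNA-Seq in purified cerebellar granule cell precursors (GCps) of mice at P7. They were taken by gene name as channels that set the leak current of granule cells, with the rise of Kcnk13 in Chd7-deficient GCps already known, so their differences between genotypes are given as a description. Where members are counted among the genes called across the whole table, the count places them in it and supports nothing. Of the 9 genes, 8 had enough reads to be fitted with the 16436 genes tested, and Kcnk4 did not. The study compared 2 control libraries, labelled Chd7flox/+, with 2 conditional knockout (cko) libraries from pups with 2 floxed Chd7 alleles and Math1-Cre, all on a C57Bl/6J background. Math1-Cre recombines in the granule cell lineage, so that Chd7, which encodes an ATP-dependent chromatin remodeler, is lost from GCps and their descendants. The sample labels give the controls 1 floxed and 1 wild-type allele, whereas the extraction notes give them 2 floxed alleles. The paper's protocol for purifying GCps pooled the cerebella of each genotype, from which lobules IX and X had been cut away. They were dissociated with papain and fractionated on Percoll. Its RNA-Seq section gives the cells used per cerebellum, so whether these libraries were pools is not certain. Whether the 2 libraries of a genotype stem from different animals is not stated in their labels, and p-values then reflect the spread between libraries alone.

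K2P channels conduct potassium at rest and so help to hold the membrane potential of a neuron negative and its input resistance low. Each subunit carries a pair of pore domains, and a channel is a dimer whose 4 pore domains together line a single pore. The family is grouped by sequence and gating into TWIK channels (Kcnk1, Kcnk6), lipid- and stretch-sensitive TREK and TRAAK channels (Kcnk2, Kcnk10, Kcnk4), acid-sensitive TASK channels (Kcnk3, Kcnk9) and halothane-inhibited THIK channels (Kcnk13, Kcnk12). Cerebellar granule neurons are known for a standing potassium current carried largely by TASK channels, and in the adult brain THIK-1, the product of Kcnk13, is best known as the resting potassium channel of microglia.

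The hallmark of the family can be read in its coding sequences. A potassium selectivity filter is a stretch of 5 residues, and a script found exactly 2 such stretches in the coding sequence of each of the 9 genes. The first of them in Kcnk13, the member with the largest difference, in Kcnk12, its closest relative, in Kcnk1, the most abundant member, and in Kcnk9, a granule cell TASK channel, is shown to make plain that the transcripts counted as different members differ even within the most conserved part. The sequences are from GENCODE transcripts on GRCm38, with the 15 bases of the filter in capitals and 6 bases on either side in lower case.
Kcnk13 first filter: gtttctACCATAGGGTTTGGGatgaca
Kcnk12 first filter: gtgtcgACCATAGGTTTCGGCatgaca
Kcnk1 first filter: ctctccACCACAGGCTATGGCcacacg
Kcnk9 first filter: atcacaACTATCGGATATGGAcatgct
Across the aligned coding bases, identity was 68.7% between Kcnk12 and Kcnk13, 70.6% between Kcnk3 and Kcnk9, 69.0% between Kcnk2 and Kcnk10 and 67.0% between Kcnk1 and Kcnk6. The longest exact stretch shared by Kcnk12 and Kcnk13 was 26 bp, and those of the other 3 pairs were 25 bp (Kcnk1 and Kcnk6), 20 bp (Kcnk3 and Kcnk9) and 17 bp (Kcnk2 and Kcnk10).

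The 4 libraries held between 61836588 and 77346481 counts. All 11 GCp markers were detected, and Zic1, a transcription factor of the lineage, had 1707 and 1702 CPM (read counts relative to library size, scaled by TMM) in the controls and 1485 and 1652 CPM in the cko, each pair of values being given for replicate 1 and then replicate 2. Gabra6, a GABA-A receptor subunit that marks mature granule neurons, was at most 0.104 CPM. Other markers of mature granule neurons were well detected. The 9 of that list summed to 350.5 and 314.1 CPM in the controls and 207.7 and 250.8 CPM in the cko. Of these, Cbln1 alone had 211.5 and 193.7 CPM in the controls and 130.9 and 144.5 CPM in the cko. Chd7 itself had 322 and 319 CPM in the controls and 392 and 355 CPM in the cko (log2 fold change 0.22 ± 0.10 SE, adjusted p = 0.418, edgeR's quasi-likelihood test). Because these counts cover the whole gene and the sources used here do not state which exons are deleted, they do not check the deletion. The paper reports, from quantitative RT-PCR of purified GCps, that the deletion was efficient. Cko replicate 1 stood apart in its sex-linked transcripts, with 792 CPM of Xist, against at most 0.548 CPM in the other 3 libraries, and 0 counts of Ddx3y, which allows up to 0.0389 CPM, against 63.7 to 69.1 CPM. This is the pattern of female cells, and the other 3 libraries had that of male cells. Sex was thus not balanced between the genotypes. The values of cko replicate 1 and cko replicate 2 are therefore given separately throughout. With 2 libraries against 2, an exact two-sided permutation test of a single gene cannot give a p below 0.333.

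Across all genes, 260 of 16436 (1.58%) passed edgeR's quasi-likelihood test at an adjusted p under 0.05, with 133 (0.809%) higher and 127 (0.773%) lower in the cko. An unadjusted p under 0.05 was found for 2231 of the 16436, which is the background for such counts in the lists below. Among the 8 members tested, 1 passed, Kcnk13, which was higher. For Kcnk9 and Kcnk3 both cko libraries were also above both controls, for Kcnk1, Kcnk2 and Kcnk10 both were below, and for Kcnk6 and Kcnk12 the genotypes overlapped. Such a separation was common, occurring in 43.9% of all tested genes (22.7% with both cko libraries higher and 21.2% with both lower), and nothing is read from the counts of members, since the choice of members used this comparison. The number of members that passed depended on the test: with DESeq2 it was 4 (Kcnk13 and Kcnk9 higher, Kcnk1 and Kcnk2 lower), when 5.34% of all genes passed. It was 2 with edgeR's likelihood ratio test (Kcnk13 and Kcnk1), when 4.11% of all genes passed, and 3 without a filter on low counts (Kcnk13, Kcnk9 and Kcnk1), when 3.12% passed. Without cko replicate 2 it was 3 (Kcnk13, Kcnk9 and Kcnk1), when 3.66% of all genes passed. The median log2 fold change was 0.13 over the 8 members and -0.000565 over all genes tested.

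**Figure D1:**
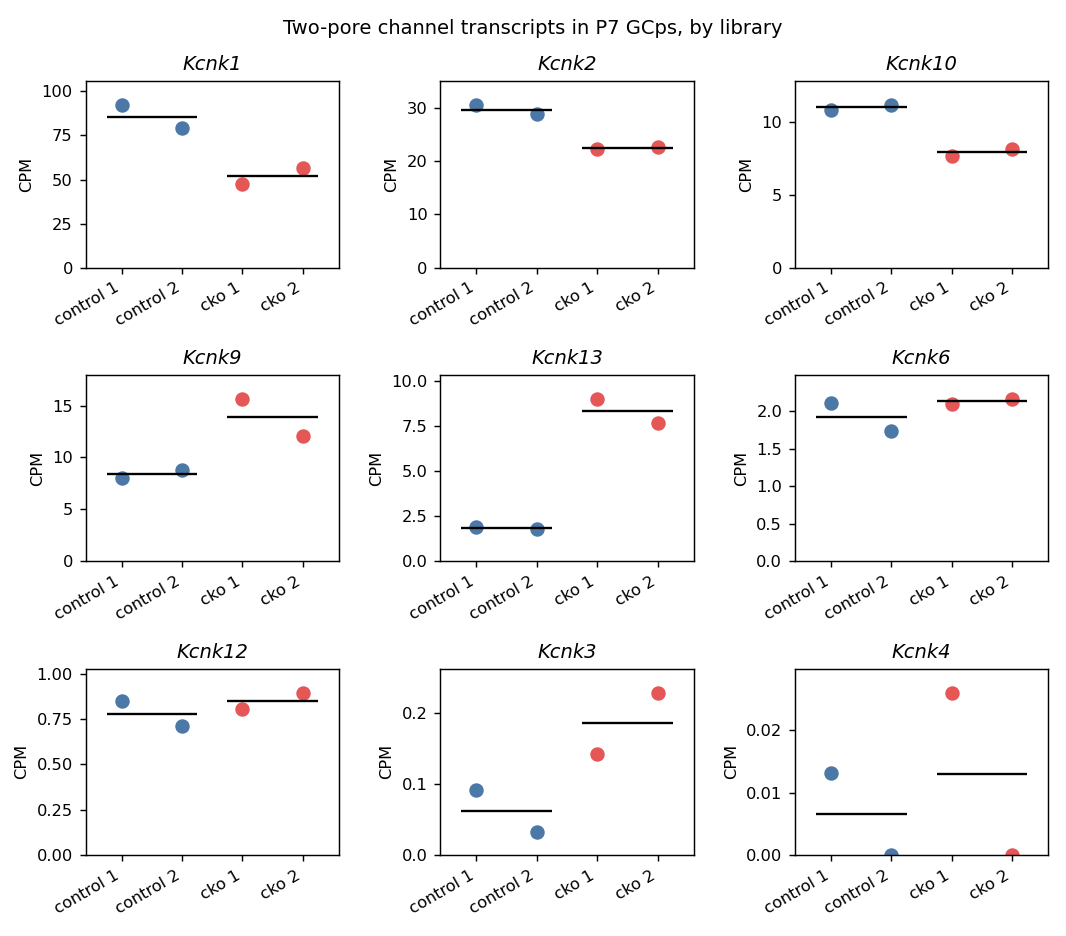
CPM of each of the 9 K2P genes in the 4 libraries, with a separate linear axis from 0 for each gene; blue points are the control libraries, red points the cko libraries and black lines the mean of each genotype. The cko points of Kcnk13 lie at 9.01 and 7.67 CPM, far above its controls at 1.93 and 1.77 CPM, whereas those of Kcnk1, Kcnk2 and Kcnk10 lie below their controls and those of Kcnk6 and Kcnk12 lie among them.

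Kcnk13 encodes THIK-1, a background potassium channel inhibited by halothane. The gene lies at chr12:99964499-100062682 on the plus strand of GRCm38, with 3112 bp of exons in 3 blocks that are shared with no other annotated gene. It had 148 and 107 counts, or 1.93 and 1.77 CPM, in the controls. In the cko it had 695 and 472 counts, or 9.01 and 7.67 CPM. Both cko libraries were thus several times above both controls, and the gap between the genotypes was much wider than the gap between the libraries of either. The ratio of the mean CPM was 4.50, and the log2 fold change was 2.17 ± 0.19 (SE). When single libraries were left out the log2 fold change ranged from 2.06 to 2.28, with 2.06 ± 0.23 without cko replicate 1. The rise of Kcnk13 was known when the members were chosen, so these values describe its size and are no evidence that it rose. Because these are bulk libraries, a change in the number of cells that express a gene and a change in its RNA per cell cannot be told apart, here and for the other members.

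Kcnk12 encodes THIK-2, which is largely retained inside the cell when expressed alone and can assemble with THIK-1. It lies on the minus strand at chr17:87745801-87797994. The controls held 65 and 43 counts (0.849 and 0.713 CPM) and the cko libraries 62 and 55 counts (0.804 and 0.894 CPM). The genotypes overlapped, and the log2 fold change was 0.12 ± 0.29. Within the THIK pair, the ratio of Kcnk13 to Kcnk12 in RPKM, that is CPM per kilobase of exon, was 1.44 and 1.58 in the controls and 7.10 and 5.44 in the cko. Kcnk13 thus exceeded Kcnk12 in every library, by a wider margin in both cko libraries than in either control.

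Of the TASK genes, Kcnk9 (TASK-3, chr15:72501089-72546340, minus strand) encodes an acid-sensitive channel of granule neurons. Its counts were 613 and 530 in the controls and 1204 and 744 in the cko. In CPM these were 8.0 and 8.78 against 15.6 and 12.1. Both cko libraries were higher than both controls, but they also differed from each other, cko replicate 2 having 0.775 times the CPM of cko replicate 1. The ratio of mean CPM was 1.65 and the log2 fold change 0.72 ± 0.17, or 0.54 ± 0.17 without cko replicate 1. Kcnk3 (TASK-1, chr5:30588170-30625271, plus strand), which can form mixed channels with TASK-3, was close to the limit of detection, with 7 and 2 counts in the controls and 11 and 14 in the cko. Although both cko libraries were higher, so few reads leave its log2 fold change of 1.47 with an SE of 0.65. Of this pair Kcnk9 was the more abundant transcript in every library, at 28.3 and 85.7 times the RPKM of Kcnk3 in the controls and 35.4 and 17.2 times in the cko.

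Kcnk1 encodes TWIK-1, a weakly conducting channel held largely in recycling endosomes. It lies at chr8:125995170-126030685 on the plus strand, and 8.01% of its exonic length overlaps Gm45875 on the opposite strand, which is not a row of the count table. It had 7055 and 4765 counts in the controls and 3640 and 3463 counts in the cko. In CPM it was at 92.1 and 79.0 in the controls and 47.2 and 56.3 in the cko. Both cko libraries lay below both controls, and the mean of the cko was 60.5% of that of the controls. The log2 fold change was -0.73 ± 0.13, or -0.59 ± 0.14 without cko replicate 1. Kcnk6 (TWIK-2, chr7:29221926-29232515, minus strand), a relative found mainly in lysosomes, had 2.12 and 1.74 CPM in the controls and 2.10 and 2.16 CPM in the cko. The genotypes of Kcnk6 overlapped, with a log2 fold change of 0.14 ± 0.23.

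The TREK genes encode channels opened by membrane stretch, arachidonic acid and volatile anesthetics. Kcnk2 (TREK-1, chr1:189207930-189402273, minus strand) had 2334 and 1738 counts, or 30.5 and 28.8 CPM, in the controls and 1711 and 1391 counts, or 22.2 and 22.6 CPM, in the cko. Its log2 fold change was -0.40 ± 0.11. Kcnk10 (TREK-2, chr12:98429437-98578310, minus strand) had 832 and 673 counts, or 10.9 and 11.2 CPM, in the controls and 594 and 503 counts, or 7.70 and 8.18 CPM, in the cko, with a log2 fold change of -0.47 ± 0.14. For each gene both cko libraries were below both controls, at 75.6% (Kcnk2) and 72.1% (Kcnk10) of the control mean. The ratio between the TREK genes barely moved: Kcnk2 had 4.98 and 4.58 times the RPKM of Kcnk10 in the controls and 5.11 and 4.91 times in the cko. Of the exonic length of Kcnk2, 12.2% overlaps A430027H14Rik on the opposite strand, which is not in the count table, whereas Kcnk10 overlaps no annotated gene. Kcnk4, which encodes TRAAK (chr19:6923966-6934515, minus strand), had 1 and 0 counts in the controls and 2 and 0 in the cko, and 0 counts allow at most 0.0497 CPM in control replicate 2 and 0.0488 CPM in cko replicate 2. A difference in Kcnk4 was not detectable at this depth. Of its exonic length, 13.1% is shared with Catsperz on the same strand, which had 1 and 2 counts in the controls and 1 and 3 in the cko.

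**Figure D2:**
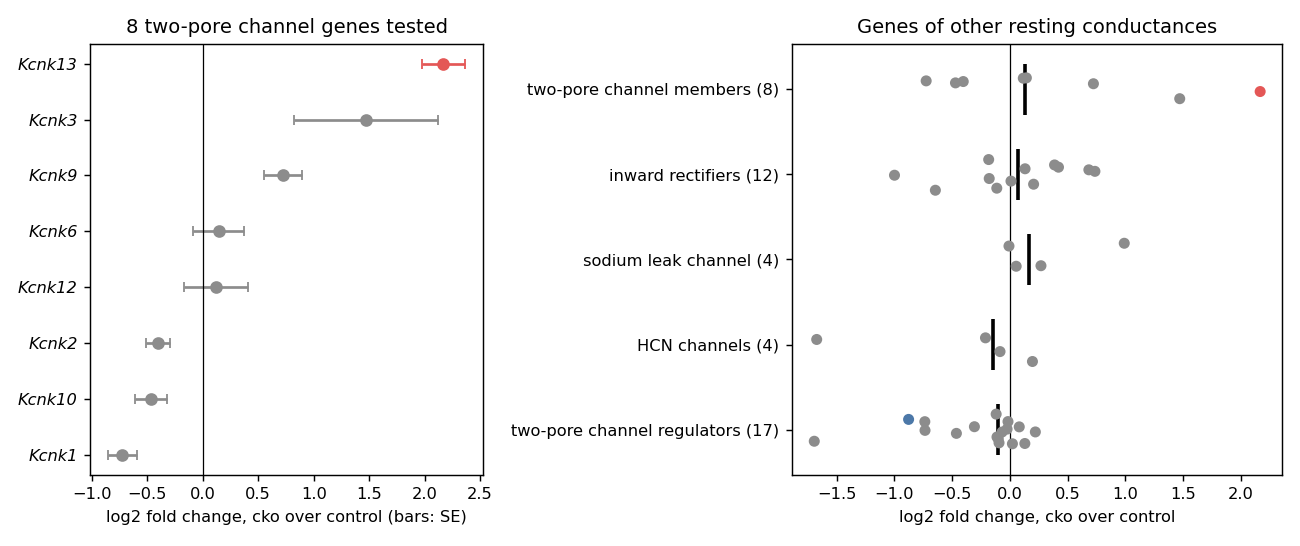
Log2 fold change of cko over control, on a linear axis, for the 8 K2P genes tested (left, bars are SE) and, unnamed, for the same genes and those of the other families of resting conductance and of K2P regulators (right), with the median of each list as a black line; red marks genes that passed higher, blue genes that passed lower and gray genes that did not pass. Kcnk13 is the red point of both panels, at 2.17, and Plcb1 the 1 blue point, at -0.88.

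The members differed widely in level. In control GCps Kcnk1 was at 38.3 ± 4.16 RPKM (mean ± SD, n = 2), above 91.5% of tested genes. Kcnk2 followed at 6.00 ± 0.239 RPKM and Kcnk10 at 1.26 ± 0.0235 RPKM. Below 1 RPKM came Kcnk9 (0.682 ± 0.0449), Kcnk13 (0.595 ± 0.0361), Kcnk6 (0.464 ± 0.0639) and Kcnk12 (0.396 ± 0.0488), with Kcnk3 (0.0157 ± 0.0104) and Kcnk4 (0.00146 ± 0.00207) at the end. The place of Kcnk9 rests on its annotated exonic length of 12300 bp, against 3112 bp for Kcnk13: before division by length, Kcnk9 had 8.39 CPM and Kcnk13 1.85 CPM in the controls. Of the neighbours in this order, Kcnk6 and Kcnk12 overlapped between the control libraries and the others did not. In the cko, Kcnk1 (23.2 ± 2.88 RPKM) and Kcnk2 (4.53 ± 0.0615 RPKM) kept the first places and Kcnk13 moved from the fifth to the third, at 2.68 ± 0.304 RPKM, ahead of Kcnk9 (1.13 ± 0.202 RPKM) and Kcnk10 (0.905 ± 0.0384 RPKM). This level placed Kcnk13 above 42.5% of tested genes, compared with 24.2% in the controls. The remaining order was Kcnk6, Kcnk12, Kcnk3 and Kcnk4, as in the controls.

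Summed over the 9 genes, the K2P transcripts amounted to 50.9 and 44.5 RPKM in the controls and 31.6 and 35.2 RPKM in the cko. Both cko sums were below both control sums. Kcnk1 took 81.0% and 79.4% of the sum in the controls and 66.8% and 71.6% in the cko. Kcnk13 took 1.22% and 1.28% in the controls and 9.16% and 7.01% in the cko. The share of Kcnk9 was 1.28% and 1.61% in the controls and 4.02% and 2.8% in the cko, while that of Kcnk2 was 12.1% and 13.1% in the controls and 14.2% and 13.01% in the cko. The pool of K2P transcripts was thus less dominated by TWIK-1 in both cko libraries, with larger shares of THIK-1 and TASK-3 and a TREK-1 share whose genotypes overlapped. Relative to Kcnk9, and with the same dependence on its length, Kcnk1 had 63.3 and 49.5 times the RPKM in the controls and 16.6 and 25.6 times in the cko. These are shares of transcripts and not of channels in the membrane.

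**Figure D3:**
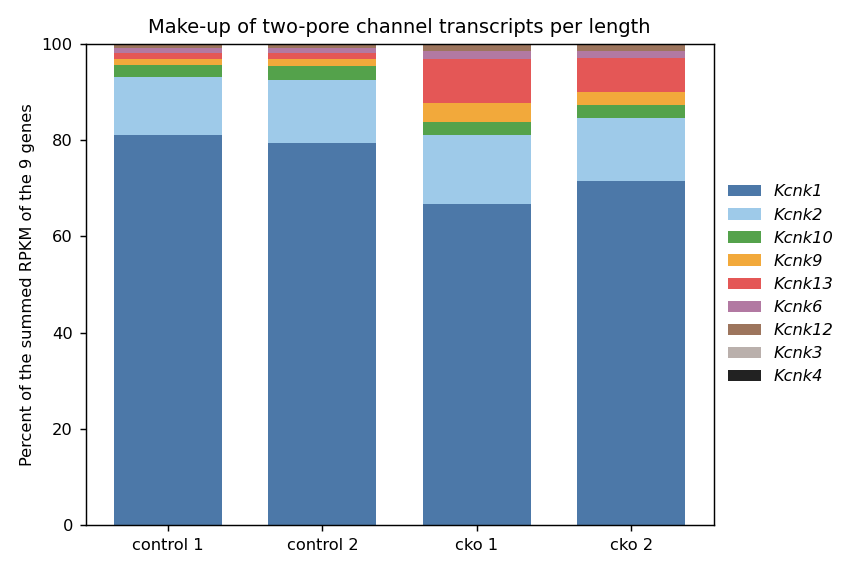
Share of each K2P gene in the summed RPKM of the 9 genes, as stacked bars from 0 to 100% for the 4 libraries. The Kcnk1 segment shrinks from 81.0% and 79.4% in the controls to 66.8% and 71.6% in the cko, and the Kcnk13 segment widens from 1.22% and 1.28% to 9.16% and 7.01%.

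The remaining 5 genes of the family were scarce in these cells. Kcnk5 (TASK-2) was the one gene of them with enough reads to be tested, at 53 and 32 counts in the controls and 64 and 28 in the cko (log2 fold change 0.08 ± 0.39, adjusted p = 0.966, edgeR's quasi-likelihood test). Kcnk7 had 5 and 0 counts in the controls and 7 and 4 in the cko. Kcnk15 had 1 count in control replicate 2 and Kcnk18 1 count in cko replicate 1, with 0 in their other libraries, and Kcnk16 had 0 in all 4.

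The promoter of Kcnk13 is shown because this member had the largest difference. The RefSeq promoter table for GRCm38.p6 held windows for 6 of the 9 members, from 250 bases before to 50 bases after each start. The window of Kcnk13, chr12:99964249-99964548 on the plus strand, is given with its single E-box in capitals.
Kcnk13 promoter: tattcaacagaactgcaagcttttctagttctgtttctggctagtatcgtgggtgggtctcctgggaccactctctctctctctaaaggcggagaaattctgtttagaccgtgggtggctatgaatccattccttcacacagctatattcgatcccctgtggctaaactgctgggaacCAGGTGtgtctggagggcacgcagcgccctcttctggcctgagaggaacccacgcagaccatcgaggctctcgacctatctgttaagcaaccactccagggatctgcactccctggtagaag
Both strands were searched for the E-box CANNTG, the motif of basic helix-loop-helix factors such as Atoh1, for the GC box GGGCGG and for the TATA box TATAAA. The E-box began at position -72 from the start, and neither of the other motifs was found. Such letters are common, an E-box occurring in 72.3%, a GC box in 35.6% and a TATA box in 13.6% of the 32817 promoter windows of the table. The window had a GC content of 52.7%, equal to the median of all windows, and 9 CpG dinucleotides against a median of 7.

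To see whether the chromosomal surroundings of Kcnk13 moved with it, the genes within 500 kb were examined. Of the 12 neighbours, 9 were tested and 0 passed edgeR's quasi-likelihood test (2 with an unadjusted p under 0.05, 0 called by DESeq2), with log2 fold changes from -0.26 to 0.58 and a median of -0.09. Gm23291, an annotated miRNA gene inside Kcnk13, had 0 CPM in all 4 libraries. Tdp1, the nearest tested gene at 9.28 kb, which encodes a DNA repair enzyme, had 64.6 and 69.2 CPM in the controls and 65.0 and 73.0 CPM in the cko (log2 fold change 0.04 ± 0.10, adjusted p = 0.917, edgeR's quasi-likelihood test). Around all 9 members there were 171 genes, of which 116 were tested and 0 passed by edgeR's quasi-likelihood test. Of these, 17 had an unadjusted p under 0.05, and DESeq2 called 3. Over all genes tested, 2231 of 16436 had an unadjusted p under 0.05, and DESeq2 called 5.34%. Nothing is read from the counts near the members.

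**Figure D4:**
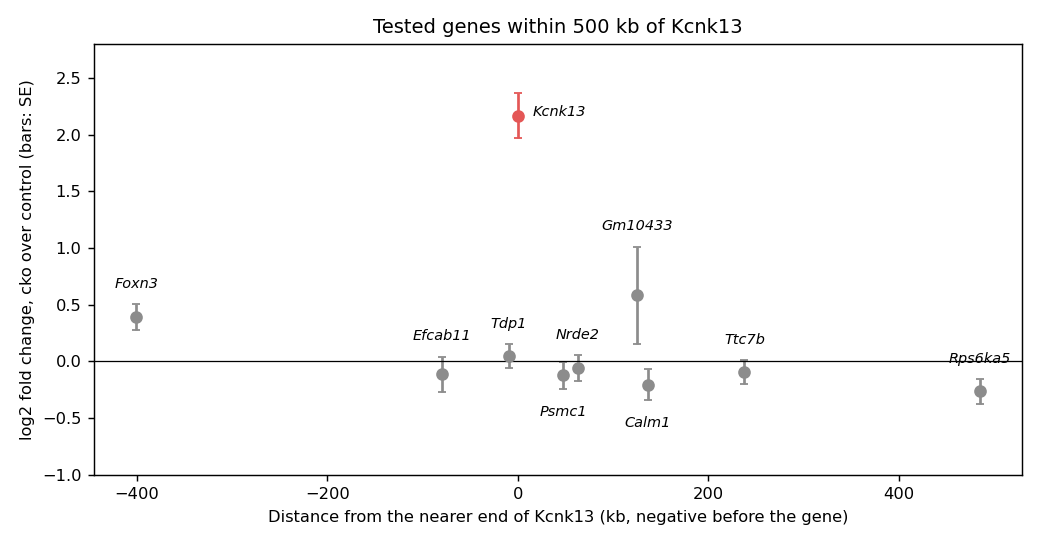
Log2 fold change of cko over control (bars, SE) for Kcnk13, in red, and the 9 tested genes within 500 kb of it, in gray, against their distance in kb from the nearer end of the gene. The gray points lie between -0.26 and 0.58, and Kcnk13 at 2.17.

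The genes whose profile over the 4 libraries was most like that of Kcnk13, by the root mean square difference of centred log2 CPM, were Adra2c (0.0995), Tspan11 (0.149), Cdh15 (0.176), Galnt15 (0.194) and Nos1 (0.197). Adra2c encodes the alpha-2C adrenergic receptor, Cdh15 M-cadherin and Nos1 neuronal nitric oxide synthase. Adra2c had 4.54 and 4.96 CPM in the controls and 22.0 and 20.6 CPM in the cko. Nos1 had 18.5 and 19.4 CPM in the controls and 66.5 and 69.5 CPM in the cko. All 5 were higher in both cko libraries than in both controls, which a likeness to Kcnk13 requires.

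The other channels that set the resting potential, and known regulators of K2P channels, were examined as lists. Among the 15 inward rectifier genes, 12 were tested and 0 passed edgeR's quasi-likelihood test (2 with an unadjusted p under 0.05, median log2 fold change 0.07). The most abundant in the controls was Kcnj3, a subunit of G protein-gated channels, with 72.7 and 85.6 CPM in the controls and 30.4 and 48.8 CPM in the cko (log2 fold change -1.0 ± 0.24, adjusted p = 0.149). Kcnj3 passed in 4 of the 10 other fits, DESeq2 among them, and 31.1% of its exonic length overlaps Gm26794 on the opposite strand. Of the 4 genes of the sodium leak channel complex, 0 passed (1 with an unadjusted p under 0.05, median 0.16). The most abundant of them, Fam155a, had a log2 fold change of -0.01 ± 0.18 (adjusted p = 0.993). Of the 4 HCN genes, which encode hyperpolarization-activated channels, 0 passed (1 with an unadjusted p under 0.05, median -0.15), and Hcn3, the most abundant, was at -0.09 ± 0.14 (adjusted p = 0.867). DESeq2 called 1 gene in each of these 3 lists, Kcnj3 and Nalcn among them, and Nalcn is named after its values were seen. Nalcn, the sodium leak channel itself, had 11.2 and 15.9 CPM in the controls and 26.5 and 27.5 CPM in the cko (log2 fold change 0.99 ± 0.18, adjusted p = 0.055 by the quasi-likelihood test). Both cko libraries were thus above both controls, without passing the main test.

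Among the 18 regulators of K2P channels, 17 were tested, 0 passed higher and 1 passed lower, with a median log2 fold change of -0.10. The gene that fell was Plcb1, a phospholipase C that acts downstream of the Gq-coupled receptors known to inhibit TASK and TREK channels. It had 5631 and 4897 counts (73.5 and 81.2 CPM) in the controls and 2917 and 2852 counts (37.8 and 46.4 CPM) in the cko, a log2 fold change of -0.88 ± 0.13 (adjusted p = 0.036). Both cko libraries were below both controls, yet the call was lost without control replicate 2 (adjusted p = 0.144) and without cko replicate 1 (adjusted p = 0.0515). In all, 1 of the 37 tested genes of these 4 lists passed, against 1.58% of all genes, and their median log2 fold change was -0.07.

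Because Kcnk13 is known from microglia, the markers of the cell types that a GCp preparation could hold were compared with it. The part of microglia or of any other cell type in the rise of Kcnk13 was not tested. The 12 microglial markers summed to 421 and 379 CPM in the controls and 397 and 402 CPM in the cko. The cko libraries lay between the controls, 0 of the 12 markers passed edgeR's quasi-likelihood test (0 with an unadjusted p under 0.05 and 0 called by DESeq2; log2 fold changes from -0.36 to 0.26), and Csf1r, the most abundant, had 84.2 and 67.4 CPM in the controls and 91.8 and 90.5 CPM in the cko. Relative to the control mean, the summed microglial markers were at 0.992 and 1.01 in cko replicates 1 and 2, whereas Kcnk13 was at 4.86 and 4.14. The 11 GCp markers were at 0.980 and 1.05, with 0 passing edgeR's quasi-likelihood test (5 with an unadjusted p under 0.05, 3 called by DESeq2). This sum pooled differences in both directions, with 7 log2 fold changes above 0 and 4 below. Of the genes called by DESeq2, Ccnd2 was higher (1132 and 1187 CPM in the controls, 1645 and 1537 in the cko). Neurod1 (1051 and 999 CPM in the controls, 475 and 780 in the cko) and Meis1 (248 and 231 CPM against 181 and 192) were lower. The 9 markers of mature granule neurons were at 0.625 and 0.755. Among these mature markers, Kcnd2, a voltage-gated potassium channel, fell (38.5 and 35.8 CPM in the controls, 3.71 and 6.73 in the cko, adjusted p = 0.0255, edgeR's quasi-likelihood test). Car4 rose (11.7 and 11.4 CPM in the controls, 18.6 and 19.4 in the cko, adjusted p = 0.0476, same test). The call of Kcnd2 was lost when either control library was left out, and that of Car4 when any of the 4 was. Grin2c, an NMDA receptor subunit of mature granule neurons named after its values were seen, ran against the sum, with 1.10 and 2.59 CPM in the controls and 23.0 and 15.5 CPM in the cko (log2 fold change 3.40 ± 0.48, adjusted p = 0.0566, edgeR's quasi-likelihood test; called by DESeq2). Of the 8 markers of this list that were tested, 4 had an unadjusted p under 0.05 and DESeq2 called 4. Cbln1, the most abundant of them, had a log2 fold change of -0.56 ± 0.10 (adjusted p = 0.056).

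**Figure D5:**
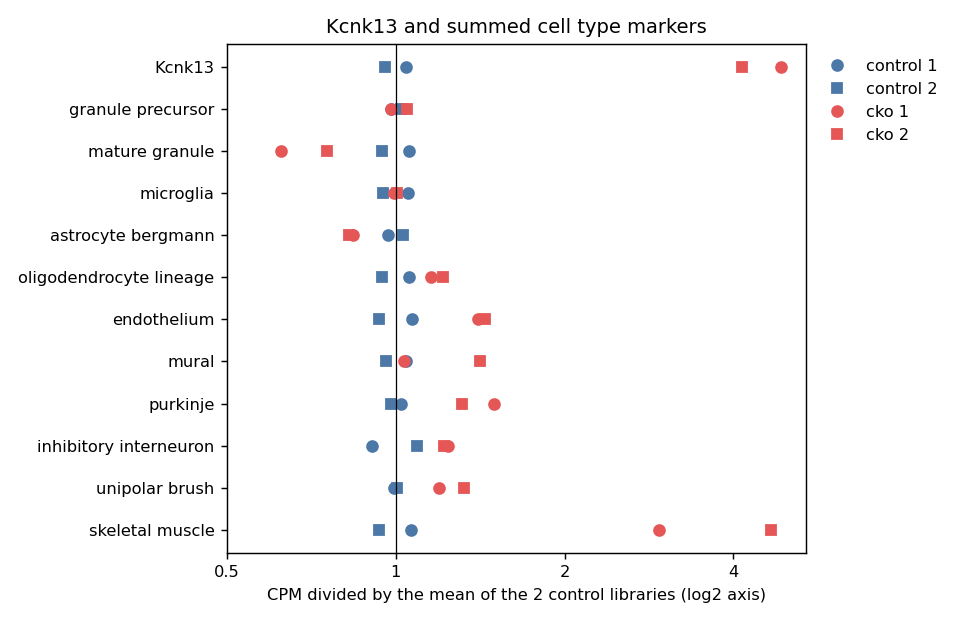
CPM of Kcnk13 and summed CPM of the markers of 11 cell types in each library, divided by the mean of the control libraries, on a log2 axis; blue symbols are controls and red symbols cko, circles replicate 1 and squares replicate 2. Kcnk13 lies at 4.86 and 4.14 in the cko, the microglial markers at 0.992 and 1.01 and the skeletal muscle genes at 2.95 and 4.68.

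Markers of several other cells were higher in both cko libraries, and their part in the differences of the K2P genes was not tested. The skeletal muscle genes summed to 13.1 and 11.5 CPM in the controls and 36.2 and 57.4 CPM in the cko, with 3 of 7 passing higher (Ckm, adjusted p = 0.038; Myh3, adjusted p = 0.0395; Tnnt3, adjusted p = 0.041). All 3 calls were lost when either control library was left out, and that of Myh3 also without a filter on low counts (adjusted p = 0.0527). Of the 7 muscle genes, 7 had an unadjusted p under 0.05 and DESeq2 called 6. Endothelial markers were at 1.40 and 1.44 times the control mean, with 1 of 10 passing (Slco1c1, log2 fold change 0.63 ± 0.10, adjusted p = 0.0415), and those of the oligodendrocyte lineage at 1.16 and 1.21, with 1 of 9 passing (Olig2, log2 fold change 1.21 ± 0.20, adjusted p = 0.0415). Of the 10 endothelial markers, 8 had an unadjusted p under 0.05, 9 had both cko libraries above both controls and DESeq2 called 6, while of the 9 oligodendrocyte lineage markers 3 had an unadjusted p under 0.05 and DESeq2 called 2. Slco1c1 and Olig2 each lost the call when control replicate 1, control replicate 2 or cko replicate 1 was left out. In the 5 remaining lists 0 of 27 tested genes passed edgeR's quasi-likelihood test, whereas 9 had an unadjusted p under 0.05 and DESeq2 called 3. Relative to the control mean, astrocyte and Bergmann glia markers were at 0.839 and 0.825, mural cell markers at 1.03 and 1.41, Purkinje cell markers at 1.5 and 1.31, inhibitory interneuron markers at 1.24 and 1.22 and unipolar brush cell markers at 1.20 and 1.32. The Purkinje cell sum was mostly Itpr1, with 28.26 of 30.44 CPM in control replicate 1 and 43.05 of 44.71 CPM in cko replicate 1. Of the other Purkinje cell markers, Calb1 had a log2 fold change of -0.21 ± 0.33 and Car8 of 0.25 ± 0.31. Pcp2 and Ppp1r17 had too few reads to be tested. The most abundant genes of these 8 lists were Myh3, Cldn5, Pdgfra, Slc1a3, Rgs5, Itpr1, Pax2 and Eomes, of which Myh3 passed.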

How the data were processed

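RNA-Seq libraries of P7 GCps were analysed, 2 control and 2 cko. ATAC-Seq and ChIP-Seq samples were not analysed here. The authors deposited raw counts for each Ensembl gene, 1 file per library. According to the submitters' processing notes, the tools were Trim Galore 0.4.1 for trimming, TopHat2 2.0.14 for alignment (mm10) and HTSeq 0.6.1p1 for counting. The counting used the intersection-strict mode and skipped reads of low alignment quality. Its strand setting is not stated in the labels, the paper or the files, so genes overlapping others on the opposite strand are uncertain.

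Gene names, exons and transcripts were taken by identifier from GENCODE release M21 on GRCm38 for 37607 of 38924 genes, and exonic lengths differ from those of the annotation used for counting to an extent that was not tested. Counts were fitted with edgeR 4.0.16 in R 4.3.3 (filterByExpr, TMM, robust quasi-likelihood test, cko against control without a block), with Benjamini-Hochberg adjustment over 16436 genes and a threshold of 0.05. SEs were obtained by dividing the absolute log2 fold change by the square root of F. CPM and RPKM use TMM-scaled totals, and RPKM divides by the union of the exons of a gene. Floors are 3 counts per library and cover counting error only. Total counts of replicates 1 and 2 came to 77346481 and 61836588 for control and 73480074 and 62437759 for cko. Libraries of a genotype differed by more than sampling noise (chi-square per degree of freedom 50.5 for control and 94.1 for cko).

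The members, the lists (other K2P genes, inward rectifiers, sodium leak channel, HCN channels, K2P regulators and markers of 11 cell types) and the tests were chosen with earlier results of these data known. The text names the members, the other K2P genes, in each list up to 3 called genes or, in channel and regulator lists without one, the gene with the highest control RPKM, in each marker list also the gene with the highest mean CPM, the tested gene nearest to Kcnk13, and the 5 genes most like Kcnk13 among those whose log2 CPM averaged 1 or more. Gabra6, Nalcn, Grin2c, Gm23291 and genes overlapping a named gene were named outside this rule, after their values were seen. Alternatives were RLE and upper quartile factors, the DESeq2 1.42.0 Wald test, edgeR's likelihood ratio test, no filter on low counts, a replicate block, leaving out each library, the length of the longest transcript, total counts as library sizes and a window of 200 kb. The fits were tested on simulated data. Figures were drawn with matplotlib 3.10.9, and coding sequences aligned with Biopython 1.88.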

Additional observations from a re-analysis of the deposited data

How the results depend on the processing

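The direction of the 8 members fitted was kept under the 10 other fits except for Kcnk12, whose log2 fold change was -0.00054 without control replicate 2 and up to 0.25 without other libraries. The number of genes called across all genes was 878 with DESeq2, 675 with the likelihood ratio test, 727 without a filter on low counts and 83 to 602 with single libraries left out (lowest without control replicate 2, highest without cko replicate 2), compared with 260. Members called numbered 4, 2, 3 and 1 to 3 under the same settings, compared with 1. For the other resting conductance genes the numbers were 5, 5, 2 and 1 to 4, compared with 1; Kcnj3, Nalcn and Plcb1 were among those that passed with DESeq2 and the likelihood ratio test. For genes near the members they were 3 with DESeq2, 2 without a filter and 0 to 1 with single libraries left out, compared with 0. Other K2P genes called numbered 0 under every setting run. With the longest transcript as length, the share of Kcnk1 was 76.2% in the controls and 65.4% in the cko, and that of Kcnk13 in the controls 1.20%, and the order of the 9 genes was kept. Log2 fold changes close to 0 changed sign with single libraries left out for Kcnk5 (-0.42 to 0.43), Fam155a (-0.24 to 0.20), Tdp1 (-0.041 to 0.14) and Pdgfra (-0.010 to 0.093), and for Fam155a also with upper quartile factors (0.011). The cause of these changes was not tested.

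The labels give both genotypes the replicate numbers 1 and 2 without saying that a number marks a shared litter or day, and deviations of same-numbered libraries from their genotype means correlated at 0.187 over genes, with 2 pairs only. With the replicate number as a block, 1010 genes passed (6.15% of those tested, with 248 of them among the 260), and 4 members (Kcnk13, Kcnk9, Kcnk1 and Kcnk2), 4 other resting conductance genes, 6 genes near the members and 0 other K2P genes. Of the marker genes named in the report, Kcnd2 (adjusted p = 0.0679) and Myh3 (adjusted p = 0.223) lost their calls under the block. Depth limits Kcnk3 and Kcnk4, with at most 14 and 2 counts.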
